A study of Rattus norvegicus with 16 samples.

Results

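The genes described here are 7 markers of oligodendrocyte precursors: Pdgfra, Cspg4, Ptprz1, Lhfpl3, Sox6, Gpr17 and Nkx2-2. They were chosen by name as known markers, with earlier results of these data in view though not by a rule on measured values, and are 7 of the 33294 genes in the count table. All 7 passed the filter on low counts and were among the 17856 genes tested. The data are poly(A) RNA-seq counts from 16 libraries of rat brain tissue labelled as the central amygdala, a GABAergic output nucleus of the amygdala. All animals were adult offspring of a perinatal exposure, with either saline or the synthetic opioid fentanyl. The tissue of every group was collected 1 day after a last session of a kind that the labels abbreviate as IVSA and do not spell out. Each exposure gave 8 libraries, 6 from males and 2 from females, and no genetic alteration is named for any of them. The sources used here do not give strain, age in days, dose or litter, so p-values measure the spread between these animals, some of which may be littermates.

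Oligodendrocyte precursors are glial cells that persist and divide in the adult brain. They leave the cell cycle, pass through a short committed stage and become oligodendrocytes, which wrap axons in myelin, and only a small part of the cells of a brain region are precursors. Pdgfra encodes the receptor for platelet-derived growth factor A, the mitogen that keeps precursors dividing. Cspg4 encodes the NG2 proteoglycan of the precursor surface, which pericytes carry as well. Ptprz1 encodes a receptor-type tyrosine phosphatase that binds pleiotrophin and is also made by astrocytes. Lhfpl3 encodes a tetraspan membrane protein used as a precursor marker. Sox6 encodes a SoxD transcription factor that holds precursors in their immature state and is also found in some interneurons. Gpr17 encodes a G protein-coupled receptor of the committed stage, and Nkx2-2 a homeodomain factor that promotes differentiation. Lhfpl3 stands in the table under a provisional symbol, LOC103692025, and was matched to it by its RefSeq gene ID.

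Because the 7 genes varied together across libraries, as described below, sequence upstream of their start sites was examined for short motifs of factors that act in this lineage. The RefSeq promoter table for GRCr8, which is newer than the rn7 build of the counts, held 6 of the 7 genes. Letters were searched on both strands in the 250 bases before each start. The sequences below are the parts of these windows outside the annotated gene for Pdgfra and Cspg4, the most used markers of the cell type, and for Lhfpl3, which held most of the matches. They are written 5′ to 3′ on the gene's strand, with motif matches in capitals.
Pdgfra (chr14:33408605-33408766, - strand): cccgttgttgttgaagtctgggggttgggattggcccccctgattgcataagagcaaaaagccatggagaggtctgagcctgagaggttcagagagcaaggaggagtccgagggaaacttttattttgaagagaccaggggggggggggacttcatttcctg
Cspg4 (chr8:66160692-66160941, + strand): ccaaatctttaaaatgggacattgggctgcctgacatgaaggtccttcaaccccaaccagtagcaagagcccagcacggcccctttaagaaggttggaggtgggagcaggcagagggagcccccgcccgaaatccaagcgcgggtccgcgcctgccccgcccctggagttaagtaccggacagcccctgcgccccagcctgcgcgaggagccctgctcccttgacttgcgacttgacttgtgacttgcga
Lhfpl3 (chr4:13271440-13271624, - strand): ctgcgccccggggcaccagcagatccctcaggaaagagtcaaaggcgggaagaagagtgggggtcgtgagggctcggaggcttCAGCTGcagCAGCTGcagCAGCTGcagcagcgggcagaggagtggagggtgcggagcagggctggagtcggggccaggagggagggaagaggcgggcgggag
CAGCTG, an E-box of the kind bound by basic helix-loop-helix factors such as Olig2, was present in 1 of the 6 windows, that of Lhfpl3. It occurred there 3 times, starting at -167, -158 and -149 from the start. Over all 33469 promoters in the table, 12% held it. ACAAAG, a core that SOX proteins bind, was found in 1 of 6 windows, that of Sox6 at -79, against 16.3% of all promoters. The windows of Sox6 and Nkx2-2 lie wholly inside the annotated gene, so this match does too. AACAAT, another SOX core, was found in none of the 6, against 10.3% of all promoters. These matches describe letters in a window only.

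Total counts ranged from 12879701 to 22426428 per library, the lowest in fentanyl male replicate 5 and the highest in saline male replicate 3. Values are given below as CPM, in which the reads of a gene are set relative to its library's total after a TMM correction. Raw counts behind the markers were ample, from 61 to 246 per library for Nkx2-2, the least counted, and from 1930 to 8053 for Ptprz1. The share of counts from mitochondrially encoded genes ran from 8.44% to 17.7%, with fentanyl male replicate 2 the highest. Central amygdala markers were present at low level: the summed CPM of 8 such genes ran from 50.61 to 270.2, and Crh, a peptide gene of this nucleus, from 0.521 to 17.2 CPM. Markers of striatal medium spiny neurons, a cell type of the neighbouring striatum whose genes are partly shared with the central amygdala, summed to 2717 to 13360 CPM over 12 genes. Those sums stood at 8730 and 10820 in saline males replicates 1 and 2, which carry library numbers 1 and 2, and at 2717 to 4762 in the other 4 saline males, which carry numbers 9 to 12. Both of the former libraries were low for precursor and myelin genes, so results that rest on them are given with and without them. All fentanyl libraries carry numbers from 1 to 6, and the saline females carry 10 and 11. Exposure and library number thus largely coincide, and the labels do not say what the numbers mark. A difference by exposure cannot be fully told apart from one between sets of library numbers. Fentanyl female replicate 2 also stood apart, with the lowest summed CPM of the 7 markers, 260.8, and the highest striatal sum, 13360.

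The highest precursor levels were seen in saline offspring and the lowest in fentanyl female replicate 2 or fentanyl male replicate 2, except for Cspg4. Pdgfra ran from 37.2 through a median of 51.3 to 64.5 CPM in the 8 fentanyl libraries, and from 43.2 through 61.2 to 75.2 CPM in the 8 saline libraries. Its lowest value was that of fentanyl male replicate 2 and its highest that of saline female replicate 2, and the groups overlapped. Cspg4 ran from 28.1 through 30.6 to 36.4 CPM after fentanyl and from 26.5 through 38.1 to 49.9 CPM after saline. The fentanyl libraries lay close together for this proteoglycan gene, and 5 saline libraries lay above their range, while saline male replicate 1 and saline female replicate 1 lay within it and saline male replicate 2 below it. Ptprz1 ran from 104 through 243 to 270 CPM after fentanyl and from 171 through 265 to 338 CPM after saline. The value of 104 CPM in fentanyl female replicate 2 was well below all others, and the remaining values of this phosphatase gene overlapped.

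Lhfpl3 ran from 17.9 through 43.2 to 57.8 CPM after fentanyl and from 23.5 through 57.3 to 71.2 CPM after saline. Its 3 lowest libraries were fentanyl female replicate 2 and saline males replicates 1 and 2, while the other 4 saline males held the 4 highest values. Sox6 ran from 13.1 through 25.8 to 33.1 CPM after fentanyl and from 15.9 through 29.3 to 40 CPM after saline. Gpr17, the receptor of committed cells, ran from 45.9 through 64.0 to 77.1 CPM after fentanyl and from 52.3 through 67.8 to 85.6 CPM after saline, with broad overlap. Nkx2-2 ran from 3.27 through 7.30 to 9.35 CPM after fentanyl and from 4.29 through 9.45 to 14.2 CPM after saline. Saline male replicate 2 was the lowest saline library for each of the 7 genes. For none of the 7 did the fentanyl and saline libraries separate without overlap, which they did for 18 of the 17856 genes (0.101%).

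**Figure D1:**
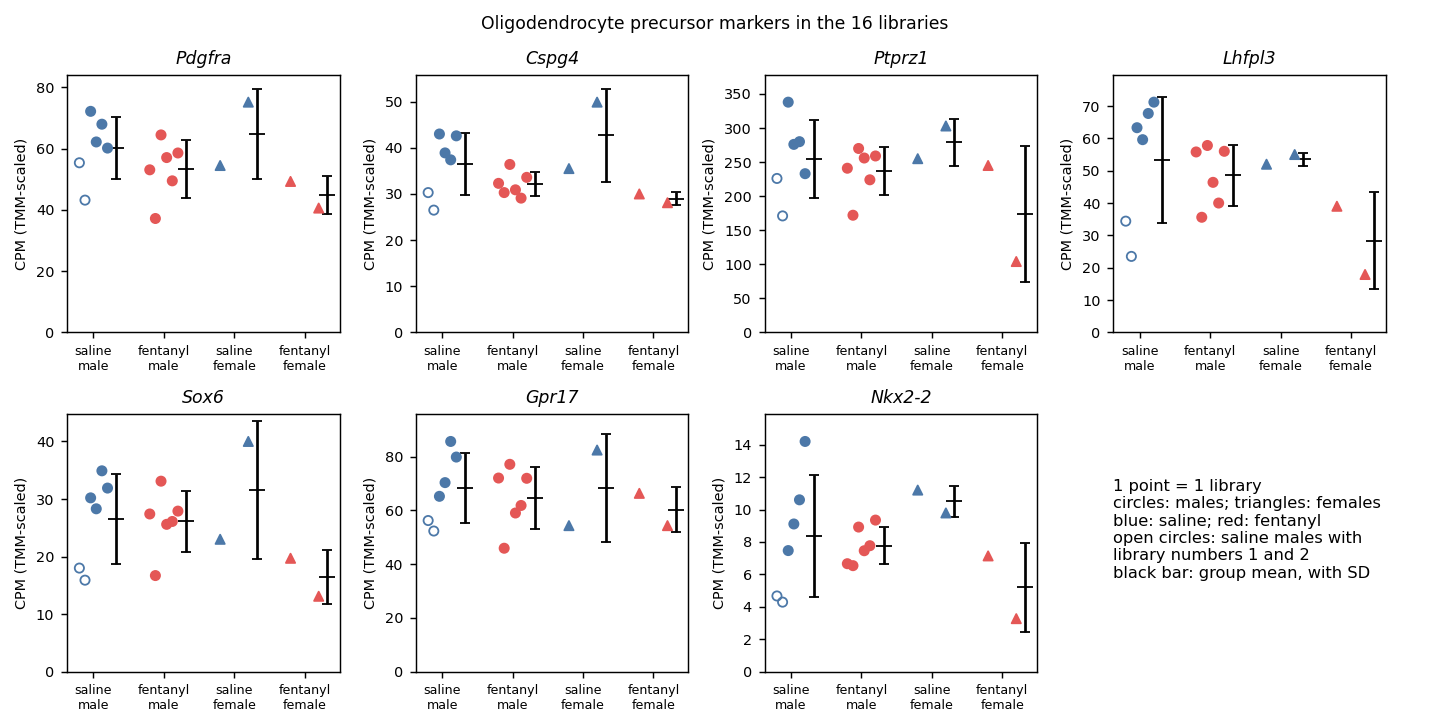
CPM of each precursor marker (vertical axis, from 0) in the 4 groups, 1 point per library, with the group mean and SD as black bars. Saline males replicates 1 and 2 (open circles) sit at the low end of their group in all 7 panels, and fentanyl female replicate 2 is the lowest point of all for Ptprz1, Lhfpl3, Sox6 and Nkx2-2.

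By group means the 7 genes had 1 common order, with saline females highest, then saline males, fentanyl males and fentanyl females. For Pdgfra the means were 64.8 ± 14.6 (SD, n = 2), 60.2 ± 10.2 (n = 6), 53.4 ± 9.39 (n = 6) and 44.9 ± 6.13 CPM (n = 2). For Nkx2-2 they were 10.5 ± 0.983, 8.38 ± 3.75, 7.78 ± 1.15 and 5.20 ± 2.73 CPM. Neighbouring groups in this order overlapped in range for each of the 7 genes, and the genes are not independent of each other, so the shared order does not count as 7 observations.

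The extent of variation differed between the markers. Over the 16 libraries the SD of log2 CPM was 0.253 for Cspg4, 0.262 for Gpr17 and 0.287 for Pdgfra, just below the median of 0.296 over all genes tested. It was 0.403 for Ptprz1, 0.452 for Sox6, 0.534 for Nkx2-2 and 0.553 for Lhfpl3. The highest library exceeded the lowest 1.86-fold for Gpr17 and 4.33-fold for Nkx2-2. The 19 mature myelin genes varied more, with SDs from 0.505 to 0.872 and a median of 0.656.

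The 7 markers rose and fell together from library to library. All 21 pairs among them correlated positively, with Pearson's r from 0.613 for Gpr17 and Ptprz1 to 0.904 for Lhfpl3 and Sox6 and a median of 0.798. By permutation with Benjamini-Hochberg adjustment over the 21 pairs, each passed the threshold of 0.05 by r (largest adjusted p = 0.00835) and by Spearman's rho (largest adjusted p = 0.0132). Without the 2 libraries farthest from the median of the first gene, r ran from 0.314 for Ptprz1 and Nkx2-2 to 0.895 for Pdgfra and Cspg4, so the former relation rests on those libraries. Such correlations are common in these libraries, and the share of all gene pairs that would pass is not given here. Among 11397 genes ranked by r with a marker, another marker stood at places from 34 (Pdgfra for Cspg4) to 1780 (Pdgfra for Nkx2-2). Nkx2-2 was closer to Enpp6 (place 23), a gene of newly formed oligodendrocytes chosen after its values were seen, and to Mog (place 26) than to its nearest marker, Lhfpl3 (place 205). Genes of a library share its depth and its tissue make-up. In bulk tissue fewer cells of a type and less RNA per cell cannot be told apart.

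Other cell types moved with the markers too. Against the mean log2 CPM of 15 further precursor genes r lay between 0.777 and 0.937, against 12 astrocyte markers between 0.761 and 0.956, and against 10 microglia markers between 0.714 and 0.901. All 7 markers passed in each case by permutation after adjustment over 49 relations. Against the striatal neuron markers r lay between -0.858 for Lhfpl3 and -0.557 for Gpr17, and again 7 of 7 passed. The share of all genes that pass against these lists is not given here, so these counts are not read as particular to the markers. Leaving out the 2 farthest libraries of each list kept these signs, with r of 0.551 or more for the 3 glial lists and of -0.584 or less for the striatal list. Against pericyte and smooth muscle markers r lay between -0.246 and 0.124 and against fibroblast markers between -0.0964 and 0.187, with 0 of 7 past the threshold for either. Cspg4, which pericytes share, had r = 0.0843 with the former list and 0.815 with the astrocyte list. The mitochondrial share of counts was negatively related to Pdgfra (r = -0.625, adjusted permutation p = 0.0119) and Gpr17 (r = -0.583, adjusted permutation p = 0.0181), which by Spearman's rho did not pass (adjusted permutation p = 0.0699 and 0.107) and which fell to -0.437 and -0.179 without the 2 farthest libraries.

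**Figure D2:**
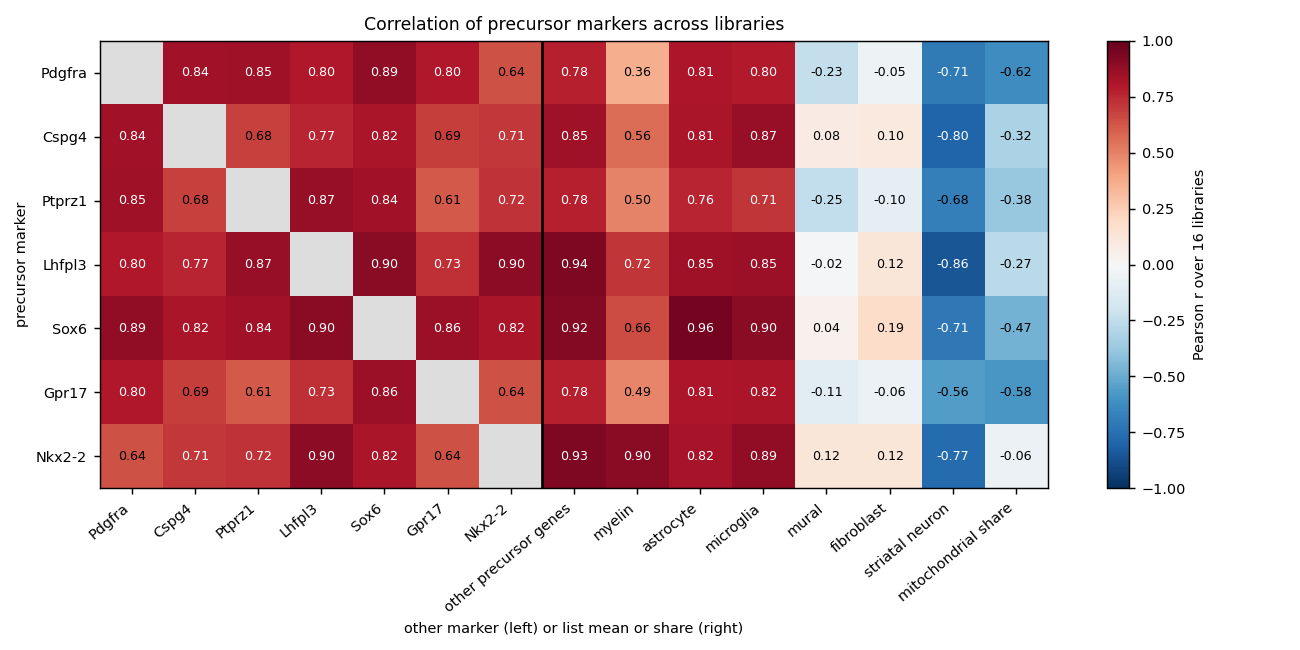
Pearson's r over 16 libraries (colour scale, -1 to 1) between each precursor marker and the other markers (left of the line) or list means and the mitochondrial share (right). All marker pairs lie between 0.613 and 0.904, the astrocyte and microglia columns between 0.714 and 0.956, and the myelin column is palest for Pdgfra (0.362) and darkest for Nkx2-2 (0.901).

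Genes most like each marker were found by r of log2 CPM over the 16 libraries, among tested genes of at least 5 CPM on average, and are given as a description. For Pdgfra they were Ptpdc1 (0.95), Fads2 (0.942), a fatty acid desaturase gene, and Slc6a11 (0.932), a GABA transporter gene of astrocytes. For Cspg4 they included Nwd1 (0.889) and Sh3pxd2b (0.882), and for Ptprz1 they were Cep170, Dmd and Pias2 (0.923 to 0.933). Lhfpl3 was most like Zfp608, Sema3c and Slc35g2 (0.968 to 0.97), and Sox6 most like Soga1, Rcbtb1 and Vsir (0.965 to 0.972). Those of Gpr17 included Exoc6b (0.921) and Ppm1f (0.918). Nkx2-2 was most like Cldnd1, Cdk5rap2 and Prkcq (0.961 to 0.973). The mean of the 7 markers was closest to Rcbtb1, Soga1, Ednrb, Igsf1, Tril, Zfp608, Npas3, Nipa1, Nav1 and Vsir, with r from 0.946 to 0.974. Ednrb, the endothelin B receptor gene, is made by astrocytes and by precursors.

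The next comparison asks how far the precursor markers followed mature myelin. A myelin index was taken as the mean log2 CPM of 19 genes of mature oligodendrocytes, none of them a precursor marker. It ran from 7.055 in fentanyl female replicate 2 to 9.062 in saline male replicate 6. Nkx2-2 followed it closely, with r = 0.901 and rho = 0.856 (adjusted permutation p = 7e-05 and 0.00042 over 7 relations; the r had the smallest p that 100000 permutations can give, 1e-05). Lhfpl3 (r = 0.718, rho = 0.621), Sox6 (r = 0.656, rho = 0.638) and Cspg4 (r = 0.555, rho = 0.647) passed as well, at adjusted permutation p of 0.00822, 0.0133 and 0.0437 for r and 0.0211 each for rho. Ptprz1 (r = 0.496, rho = 0.415), Gpr17 (r = 0.486, rho = 0.506) and Pdgfra (r = 0.362, rho = 0.45) did not pass, at adjusted permutation p of 0.0646, 0.066 and 0.168 for r. For this correlation the share of all genes that pass is not given here, while the slope on the index below has such a share.

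For all but Nkx2-2, whether a marker passed depended on the libraries used. Without fentanyl female replicate 2 and saline male replicate 1, the 2 farthest from the median index, Nkx2-2 had r = 0.83 (adjusted permutation p = 0.00077), while Lhfpl3 (0.542), Sox6 (0.429) and Cspg4 (0.466) no longer passed. Without saline males replicates 1 and 2, and in males alone, Nkx2-2 was again the 1 gene past the threshold, with r = 0.87 and 0.857. It was also the 1 gene past it without fentanyl female replicate 2 alone, whereas all 7 passed without fentanyl male replicate 2. The call of Cspg4 was lost in 10 of the 16 fits that left out 1 library, and with RLE size factors (adjusted permutation p = 0.0501). Those of Lhfpl3 and Sox6 were each lost in 1 of the 16, the fit without fentanyl female replicate 2. Within the 8 fentanyl libraries r for Nkx2-2 was 0.86 and within the 8 saline libraries 0.947. Pdgfra had 0.278 and 0.45 in the same groups.

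**Figure D3:**
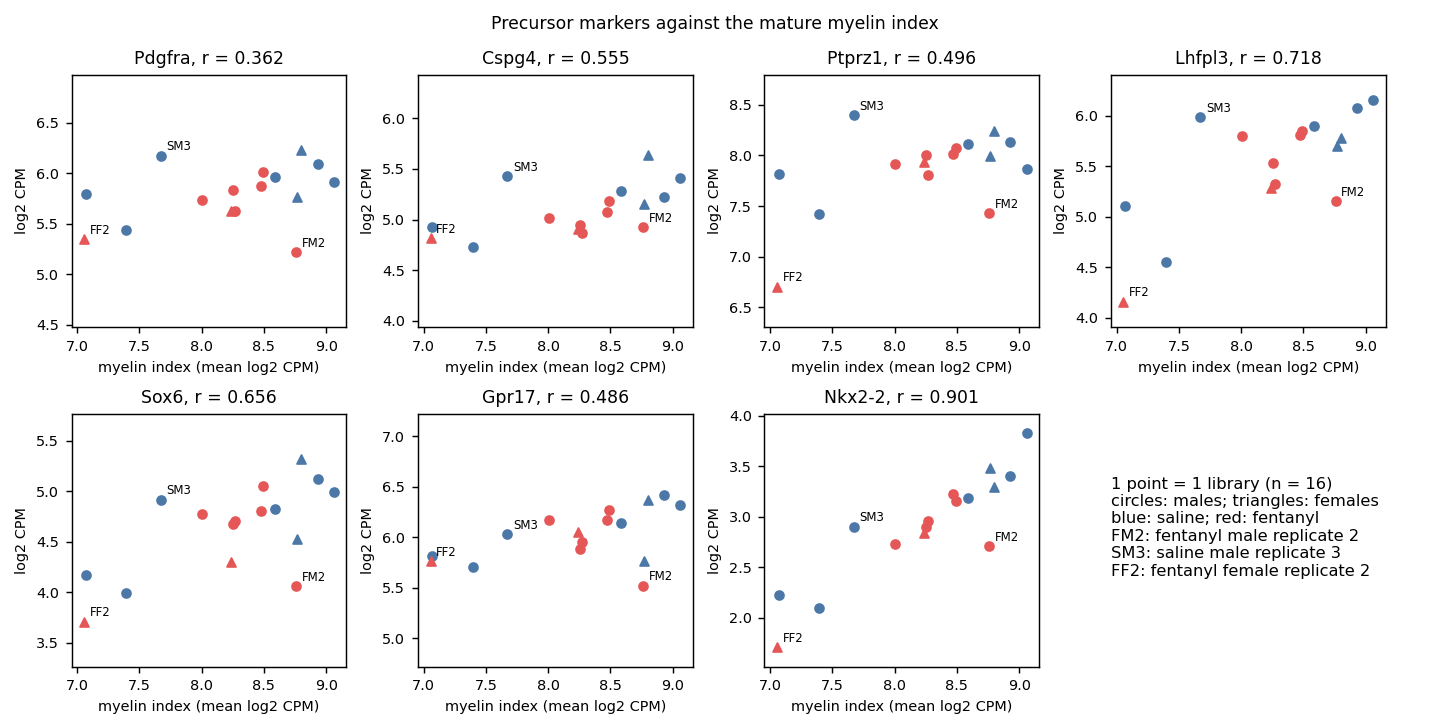
Log2 CPM of each precursor marker (vertical axis, 2.5 log2 units in each panel) against the myelin index (horizontal axis, mean log2 CPM of 19 genes), 1 point per library. Nkx2-2 lies nearest a line (r = 0.901), Pdgfra is the most scattered (r = 0.362), and fentanyl male replicate 2 lies low and saline male replicate 3 high for their myelin level in most panels.

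The balance of markers and myelin differed most between male libraries. In fentanyl male replicate 2 the mean log2 CPM of the 7 markers was 5.011 at a myelin index of 8.761, a difference of -3.75, and in the other 15 libraries that difference ran from -3.28 to -1.94. The upper end was saline male replicate 1, at 5.129 and 7.069, a difference of -1.94. Saline male replicate 3 was next, at 5.696 and 7.673, a difference of -1.978. Summed CPM put the same contrast in other terms: the 19 myelin genes summed to 37770 CPM and the 7 markers to 344.8 CPM in fentanyl male replicate 2, against 12850 and 619.2 CPM in saline male replicate 3.

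In a model across all genes with exposure and sex as terms, the slope on the index gave the change of each gene in log2 units per log2 unit of myelin. Nkx2-2 rose by 0.75 ± 0.0989 (SE; adjusted p = 2.76e-05), Lhfpl3 by 0.57 ± 0.14 (adjusted p = 0.00555) and Sox6 by 0.46 ± 0.134 (adjusted p = 0.0148) in edgeR's quasi-likelihood F test, with p-values adjusted by the Benjamini-Hochberg method. The slopes of Ptprz1 (0.27 ± 0.135), Gpr17 (0.21 ± 0.0914), Cspg4 (0.20 ± 0.075) and Pdgfra (0.15 ± 0.0972) were above 0 and did not pass, at adjusted p of 0.139, 0.0931, 0.0511 and 0.259 in edgeR. Thus 3 of 7 markers were called higher, beside 15.6% of all genes tested, and all 7 slopes lay above 0, beside 50.4%. The median slope was 0.27 beside 0.0022 over all genes. Since many genes follow the index (30.7% were called in either direction), the markers called higher are read against the 15.6% called higher. The call of Sox6 was lost without fentanyl female replicate 2, saline male replicate 1 or saline male replicate 2 (edgeR adjusted p = 0.0678, 0.0753 and 0.0548). Without both saline males numbered 1 and 2, 1 of 7 markers, Nkx2-2, was called, beside 7.02% of all genes. Cspg4 was called in addition with DESeq2 (0.20, adjusted p = 0.0457), which called 4 of 7 higher, beside 16.6% of all genes. With an index of 4 myelin genes Cspg4 was also called (edgeR adjusted p = 0.0499), and the share of all genes is not given here for that index. With limma voom 5 of 7 were called, beside 24.3%, Cspg4 and Gpr17 in addition.

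The lists of later and earlier stages had unlike median slopes and overlapping ranges, and these were not tested against each other. Of 11 other genes of committed precursors and newly formed oligodendrocytes, 9 rose with the index, led by Bcas1 (1.05 ± 0.0892) and Enpp6 (1.05 ± 0.0664). The slopes of the 11 ran from 0.062 to 1.05, with a median of 0.56. Of 15 other precursor genes, 10 rose and 1 fell, with a median of 0.36. Olig2 (0.91 ± 0.0554) and Olig1 (0.74 ± 0.0763), lineage factors of precursors and mature cells alike, were at the high end. Cacng4, an AMPA receptor auxiliary subunit gene, was the 1 that fell, by 0.61 ± 0.159 on the log2 scale per unit (edgeR adjusted p = 0.00859). These 5 genes were chosen after their values were seen. The genes of the index itself had slopes from 0.76 (Mal) to 1.30, with Mbp at 1.17, Mog at 0.99 and Mag at 1.02, which their part in the index fixes. These counts stand beside 15.6% of all genes called higher and 15.1% called lower. Of 12 astrocyte markers 6 rose, of 10 microglia markers 8 rose and of 12 striatal markers 7 fell. Of 8 cell cycle genes 4 rose with the index, Top2a among them (0.64 ± 0.215, edgeR adjusted p = 0.0328), and none fell. Among 23 ligands, receptors and signalling genes that act on precursors 7 rose and 6 fell. Notch1, a receptor that holds back differentiation, rose by 0.27 ± 0.0505 (edgeR adjusted p = 0.000635).

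**Figure D4:**
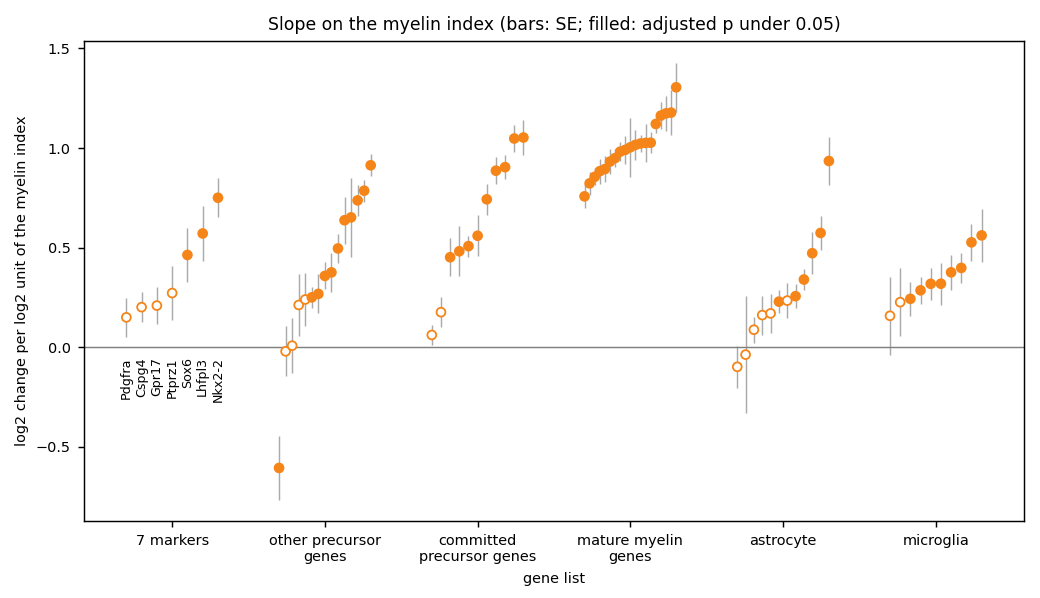
Slope of each gene on the myelin index (log2 change per log2 unit, vertical axis; bars are SE) by gene list, filled where the adjusted p was under 0.05. The 7 markers run from 0.15 for Pdgfra to 0.75 for Nkx2-2, below the index genes, and 1 other precursor gene, Cacng4, lies at -0.61.

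Between 8 fentanyl and 8 saline offspring, with sex as a term, no marker passed the test. The comparison asks whether precursor transcripts differed in adults by perinatal exposure. All 7 estimates lay below 0, beside 52.3% of all genes tested, and their median was -0.26 on the log2 scale beside -0.0094. Nkx2-2 (-0.33 ± 0.244, SE), Lhfpl3 (-0.32 ± 0.228), Cspg4 (-0.28 ± 0.11), Pdgfra (-0.26 ± 0.125), Sox6 (-0.25 ± 0.205), Ptprz1 (-0.24 ± 0.174) and Gpr17 (-0.10 ± 0.127) had adjusted p from 0.605 to 0.868 in edgeR's quasi-likelihood F test, with p-values adjusted by the Benjamini-Hochberg method. Thus 0 of 7 were called, beside 0.0784% of all genes. At an unadjusted p under 0.05 there was 1 marker, Cspg4, beside 7.27% of all genes, and Pdgfra was next. DESeq2 called 0 of 7, beside 0.487% of all genes. Limma voom with sample quality weights called 1, Cspg4, lower by 0.27 (adjusted p = 0.0462), beside 5.77% of all genes.

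Which saline males were used changed this result. Without those numbered 1 and 2, Cspg4 (-0.40 ± 0.0848, edgeR adjusted p = 0.0158) and Lhfpl3 (-0.56 ± 0.159, edgeR adjusted p = 0.0454) were called lower after fentanyl. That is 2 of 7, beside 2.67% of all genes called lower, and the median of the 7 was -0.40. Both libraries left out were low for precursor genes, so leaving them out lowers these estimates by itself. Fentanyl female replicate 2 had a higher striatal sum than either and was kept, so these calls depend on the choice of libraries. In this subset every fentanyl library carries a number from 1 to 6 and every saline library a number from 9 to 12. Exposure and library number therefore cannot be told apart in it. The 4 remaining saline males had 37.4 to 43.0 CPM of Cspg4, against 26.5 and 30.3 CPM in the 2 left out and 29.1 to 36.4 CPM in the 6 fentanyl males. The median was -0.19 when fentanyl female replicate 2 was left out and -0.34 when saline male replicate 2 was left out, with 0 of 7 called in both. With the myelin index as a covariate the median was -0.23 and 0 of 7 were called, beside 0.224% of all genes.

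**Figure D5:**
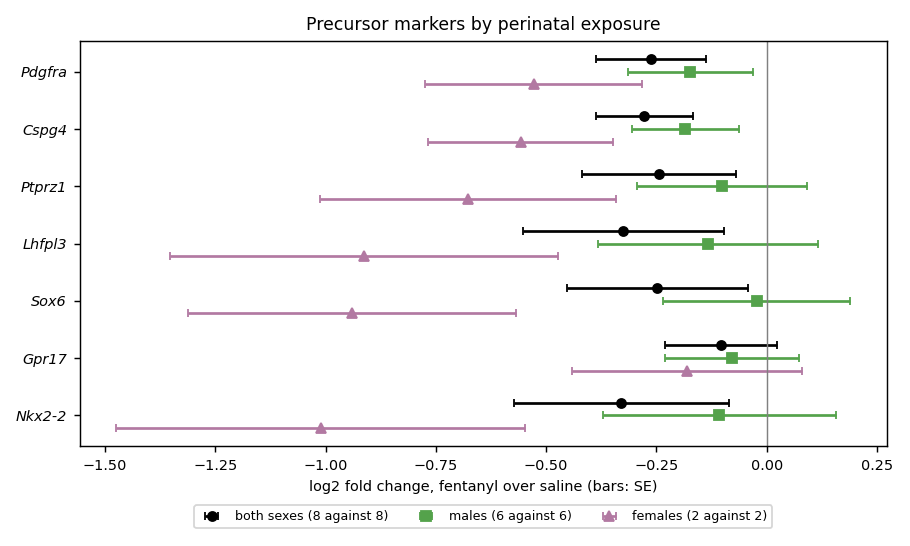
Log2 fold change of each precursor marker, fentanyl over saline (horizontal axis; bars are SE), in both sexes, in males and in females. All 21 points lie below 0, the female point is the farthest from 0 for each gene, and none passed the adjusted threshold.

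Several marker lists of other cell types also had estimates mostly on 1 side of 0, and none of their genes was called. Over 12 striatal neuron markers 12 estimates lay above 0, with a median of 0.50, 0 called and 5 at an unadjusted p under 0.05 by edgeR. Their summed CPM ran from 6196 to 13360 in the fentanyl libraries and from 2717 to 10820 in the saline libraries. Of 10 microglia markers 10 lay below 0 (median -0.22), of 12 astrocyte markers 11 (median -0.15) and of 19 myelin genes 18 (median -0.21), with 0 called in each. The part of striatal, astrocyte and microglial content in the marker values was not tested.

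Genes around the markers were lower in estimate as well, and none was called. All 15 other precursor genes had estimates below 0 (median -0.16, 3 at an unadjusted p under 0.05). Pcdh15, a protocadherin gene of precursors, ran from 12.9 through 23.2 to 29.2 CPM after fentanyl and from 18.4 through 31.7 to 37.9 CPM after saline, a log2 fold change of -0.49 ± 0.143 (edgeR adjusted p = 0.394). Sox5, which encodes the SoxD partner of Sox6, was at -0.47 ± 0.191 (edgeR adjusted p = 0.631). Among the 11 committed-stage genes 9 lay below 0, with Itpr2, an inositol trisphosphate receptor gene, at -0.33 ± 0.109 and Tmem163, a zinc transporter gene, at -0.45 ± 0.206 (edgeR adjusted p = 0.485 and 0.679). Among the 23 signalling genes 17 lay below 0, with Hes1, a target of Notch, at -0.50 ± 0.168 and Notch1 at -0.21 ± 0.104 (edgeR adjusted p = 0.498 and 0.704). Among 8 cell cycle genes 6 lay below 0, with Mcm2 at -0.25 ± 0.134 and Top2a at -0.56 ± 0.31 (edgeR adjusted p = 0.735 and 0.738). Of the myelin genes Mog was at -0.33 ± 0.291, Mal at -0.26 ± 0.234, Mag at -0.23 ± 0.3 and Mbp at -0.036 ± 0.359 (edgeR adjusted p from 0.829 to 0.984).

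In males, 6 against 6, no marker passed. The estimates ran from -0.18 ± 0.121 for Cspg4 and -0.17 ± 0.142 for Pdgfra to -0.023 ± 0.212 for Sox6, with a median of -0.11 beside -0.0051 over all genes. By edgeR 0 of 7 were called, beside 0.0392% of all genes, and 0 had an unadjusted p under 0.05, beside 4.13%. DESeq2 and limma voom called 0 of 7 as well, beside 0.241% and 0.487% of all genes. Without saline males numbered 1 and 2 the median was -0.29, with 0 of 7 called, beside 0.4% of all genes. Leaving out 1 library moved the median from -0.24, without saline male replicate 2, to -0.032, without saline male replicate 6, and the myelin covariate moved it to -0.18. The estimates of Gpr17 and Sox6 turned to 0.011 and 0.085 without fentanyl male replicate 2, and that of Nkx2-2 to 0.11 without saline male replicate 6. Myelin genes in males had 16 of 19 estimates above 0 (median 0.090), opposite in sign to those of the markers, with 0 called in either list.

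In females, 2 against 2, the estimates were larger and rested on few animals. Fentanyl female replicates 1 and 2 had 49.3 and 40.6 CPM of Pdgfra, against 54.5 and 75.2 CPM in saline females. Cspg4 was at 30.0 and 28.1 CPM against 35.5 and 49.9 CPM, and Ptprz1 at 245 and 104 CPM against 255 and 303 CPM. Both of these surface protein genes were lower in each fentanyl female than in each saline female. Lhfpl3 was at 39.0 and 17.9 CPM against 52 and 55 CPM, and Sox6 at 19.7 and 13.1 CPM against 23.0 and 40 CPM. Gpr17 was at 66.3 and 54.3 CPM against 54.3 and 82.4 CPM, and Nkx2-2 at 7.14 and 3.27 CPM against 11.2 and 9.79 CPM. For 6 of the 7 genes, all but Gpr17, both fentanyl values lay below both saline values, beside 24.7% of all genes.

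The log2 fold changes in females were -1.01 ± 0.463 for Nkx2-2, -0.94 ± 0.372 for Sox6, -0.91 ± 0.439 for Lhfpl3, -0.68 ± 0.335 for Ptprz1, -0.56 ± 0.21 for Cspg4, -0.53 ± 0.246 for Pdgfra and -0.18 ± 0.261 for Gpr17. None passed adjustment in edgeR (smallest adjusted p = 0.333), where 0% of all genes were called. At an unadjusted p under 0.05 there were 4 of 7, Cspg4, Sox6, Nkx2-2 and Pdgfra, beside 14.3% of all genes. Neither DESeq2 nor limma voom called any of the 7, beside 0.112% and 0% of all genes. Myelin genes had 19 of 19 estimates below 0 in females (median -1.02), microglia 10 of 10 (median -0.64) and astrocytes 12 of 12 (median -0.42), while striatal markers had 12 of 12 above 0 (median 0.86). The median of the 7 markers was -0.46 when fentanyl female replicate 2 was left out and -1.26 when replicate 1 was left out, the lone animal being assumed to vary like the other groups. With the myelin index as a covariate it was -0.38.

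The difference between the sexes in their response was tested directly. Its estimates ran from -0.92 ± 0.427 for Sox6 to -0.10 ± 0.302 for Gpr17, with a median of -0.58. The median was -0.18 with the myelin covariate, -1.24 without fentanyl female replicate 1, -0.33 without fentanyl female replicate 2 and -0.43 without saline males numbered 1 and 2. By the test 0 of 7 passed in edgeR (adjusted p from 0.57 to 0.921), beside 0% of all genes. At an unadjusted p under 0.05 there was 1, Sox6, beside 8.23% of all genes. DESeq2 and limma voom called 0 of 7, beside 0.0224% and 0% of all genes. Thus a difference between males and females in the response of these genes was not shown. Levels in 4 females against 12 males, with exposure as a term, gave estimates from -0.36 ± 0.269 for Lhfpl3 to 0.047 ± 0.126 for Cspg4. By edgeR 0 of 7 were called, beside 0.056% of all genes, and 0 had an unadjusted p under 0.05, beside 2.52%. DESeq2 and limma voom again called 0 of 7, beside 0.0672% and 0.084% of all genes. Of these estimates all but that of Lhfpl3 changed sign when a female library was left out.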

How the data were processed

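Libraries were prepared from Trizol-extracted RNA after poly(A) selection, with NEBNext kits, per the labels' protocols. The deposited table holds whole-number read counts per gene with no normalization. Tools named in the submitters' processing notes are Trimmomatic, STAR, HTSeq and DESeq2, with the build rn7. The sources used here do not give their versions, the annotation or whether counting used strand, so antisense or overlapping genes may share reads. Columns were matched to samples by library name. Of the 120 pairs of libraries none agreed within sampling noise (smallest chi-square per gene 3.84), and all were kept as separate samples.

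The count analysis used edgeR 4.0.16 under R 4.3.3: filterByExpr on the 4 groups (minimum 0.603 CPM, leaving 17856 genes; 5345 had no count), TMM factors, glmQLFit with robust estimation and glmQLFTest, with Benjamini-Hochberg adjustment across every tested gene at a threshold of 0.05. Sex was a term in the fit of exposure in both sexes; males, females and their difference were contrasts of 1 fit of the 4 groups. A standard error is the log2 fold change over the square root of F. Log2 CPM used a prior count of 2. Correlations used 100000 permutations, two-sided (scipy 1.17.1). DESeq2 1.42.0 and limma 3.58.1 (voom with sample quality weights) were alternatives, beside RLE factors, no filter, a replicate block, subsets of libraries, a myelin covariate and each library left out. The steps were tested on simulated counts. Of 1.5-fold changes 68.7% were recovered over both sexes and 37.8% in males, and 55.2% for the slope per index unit. Smaller changes were not simulated. The simulated fit over both sexes called 172 genes, against 14 in the data, and the shares pool many genes. They therefore need not hold for the 7 markers. Genes were drawn independently of each other, unlike in these libraries, where they vary together.

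The 7 markers and the gene lists were chosen with earlier results of these data known. Named genes were the 7 markers; in the lists of precursor, committed, signalling, cell cycle and myelin genes, those past the threshold for exposure over both sexes or else the 2 with the smallest p; Mbp, Mog and Mag; the 3 genes most like each marker and the 10 most like their mean, leaving out provisional symbols. Some genes that this rule would name are not reported here. Others are defining genes of a cell type or are said to be chosen after their values were seen. Tac2 was found in the table as Tac3. Ptprz1 had no entry in the promoter table.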

Additional observations from a re-analysis of the deposited data

Results flagged for a closer look

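In 36 groups of 6 or 8 libraries, single values, 4 in all, lay further from the rest than Dixon's 95% limit allows. Chance gives about 1 in 20 groups, and the groups share libraries. Fentanyl female replicate 2 had 3.27 CPM of Nkx2-2, the lowest of the 8 fentanyl libraries, the next being 6.54 CPM. The same library had the lowest myelin index of that group, 7.055, the next being 8.004. Fentanyl male replicate 2 had the lowest difference between the mean log2 CPM of the 7 markers and the myelin index, -3.75, with the next at -2.944 among fentanyl males and at -2.955 among all fentanyl libraries. That library also had the highest mitochondrial share of counts, 17.7%, and whether this share bears on the difference was not tested.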

How the results depend on the processing

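Over settings other than leaving out 1 library, 75 of the main counts stayed within a factor of 1.5 and 23 moved further. Counts of genes past the threshold over both sexes were 14 in edgeR, 87 with DESeq2, 1031 with limma voom, 7 with the replicate block, 1226 without saline males numbered 1 and 2 and 40 with the myelin covariate; of the markers limma voom called 1 and the fit without those males 2. In males 7 genes became 43, 87, 3, 71 and 11 under the same settings. In females 0 became 20 with DESeq2, 14 without those saline males and 65 with females alone, and for the difference between sexes 0 became 4 with DESeq2. For the myelin slope 5481 genes became 8678 with limma voom (5 markers), 3424 with the replicate block and 2445 without those saline males (1 marker). For the myelin correlation 4 markers became 1 without those saline males and 1 in males only. The cause of these moves was not tested.

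Some estimates changed sign, none of them past the threshold. Female against male levels turned to -0.061 for Cspg4 with limma voom and -0.035 without those saline males; with the replicate block they turned to 0.21 for Pdgfra, 0.19 for Gpr17, 0.081 for Lhfpl3, 0.26 for Sox6, 0.14 for Ptprz1 and 0.42 for Nkx2-2. Sox6 in males turned to 0.014 with the block. Gpr17 turned to 0.092 in females with the myelin covariate, and for the difference between sexes to 0.21 with it and 0.033 without those saline males. The myelin slope of Pdgfra turned to -0.000187 without those saline males.

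Leaving out 1 library at a time gave 9 (without fentanyl male replicate 6) to 29 genes (without saline male replicate 2) over both sexes, 4 (without saline male replicate 4) to 9 in males, and 0 to 5 in females and for the difference between sexes, 5 being without saline male replicate 5. The myelin slope held 2 markers without fentanyl female replicate 2 to 5 without fentanyl male replicate 2, saline male replicate 3 or saline female replicate 1, and the correlation 1 without fentanyl female replicate 2 to 7 without fentanyl male replicate 2. Estimates that changed sign ranged as follows. For sex they were -0.21 to 0.029 for Pdgfra, -0.11 to 0.12 for Cspg4, -0.18 to 0.044 for Gpr17, -0.49 to 0.032 for Sox6, -0.27 to 0.11 for Ptprz1 and -0.25 to 0.17 for Nkx2-2. In males they were -0.14 to 0.011 for Gpr17, -0.13 to 0.085 for Sox6 and -0.24 to 0.11 for Nkx2-2. For Gpr17 they were -0.45 to 0.15 in females and -0.37 to 0.22 for the difference.

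Replicate numbers gave little sign of pairing the samples. Over 8 pairs the correlation of deviations from the group mean ran from -0.172 to 0.209, 2 pairs were above 0.1, and 1 of 6 males correlated best with its own number. With 2 females a group the female pairs have equal values by construction, and low correlations cannot exclude a pairing. With the replicate block, 48 of 60 results kept their direction and side of the threshold, and the Sox6 slope on myelin, 0.42, lost its call (edgeR adjusted p = 0.0832). Depth limits Nkx2-2 most, at 61 counts in its lowest library. The female comparison has 2 animals a group.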
